A study of Mus musculus with 8 samples.

Results

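The 9 genes described here belong to the fibroblast growth factor (FGF) pathway and were followed through mouse primordial germ cells (PGCs), their in vitro counterparts and the pluripotent lines derived from them. They were chosen by name as the ligand Fgf4, the receptors Fgfr1 and Fgfr2, the GTPase Hras, the transcription factors Etv4 and Etv5, and the feedback inhibitors Spry2, Spry4 and Dusp6. The choice was made with earlier results of these data known. Shares over all genes set beside the 9, or beside the pathway lists, are therefore description and not a test. These 9 genes are 9 of the 20153 gene identifiers in the table, and all 9 passed the filter on low values. Total RNA was measured by RNA sequencing in 8 libraries, 2 per group. PGC libraries 1 and 2 came from endogenous E9.5 PGCs of the strain Oct4gfpXCD1 at passage 0, from about 250 cells each. Libraries EGC 4 and EGC 7 came from embryonic germ cell (EGC) lines 4 and 7, derived from sorted E9.5 PGCs of the same strain, at passage 6 and from 500 cells. The iPGC libraries (1500 cells) came from embryonic stem cells (ESCs) of the BVSC line at passage 21, differentiated in hanging drops. The PGCLC libraries (300 to 500 cells) came from BVSC ESCs, also labelled passage 21, turned into PGC-like cells in aggregates. No agent was given as a treatment, but the culture conditions differed. EGCs grew in serum with LIF on feeder fibroblasts, and BVSC ESCs were kept in LIF with 2i, which as background is a pair of inhibitors against MEK and GSK3. The shared protocol also lists basic FGF in the medium for cultured PGCs, although the sequenced PGCs are labelled passage 0. Strain and group cannot be told apart where iPGCs or PGCLCs are compared with PGCs or EGCs, and each EGC library is 1 line.

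FGF ligands bind FGF receptors, which are receptor tyrosine kinases, together with heparan sulfate. The activated receptor signals through adaptors and Ras GTPases to the MAP kinase ERK, whose activity raises transcription of Etv4 and Etv5 and of inhibitors such as Sprouty proteins and Dusp6 that limit the signal. In pluripotent cells Fgf4 is the main autocrine ligand and promotes exit from naive pluripotency, while basic FGF is a standard factor for turning cultured PGCs into EGCs.

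Promoter windows of the 4 genes whose levels separated PGCs most widely from EGCs are shown, to let the letters be read beside the levels. Each runs from 250 bases before to 50 bases after a RefSeq start site (GRCm38.p6), 5′ to 3′ on the gene's own strand. Capitals mark the ETS core GGAA or its reverse complement TTCC, since Etv4 and Etv5 are ETS factors.
Fgf4, chr7:144861136-144861435, plus strand: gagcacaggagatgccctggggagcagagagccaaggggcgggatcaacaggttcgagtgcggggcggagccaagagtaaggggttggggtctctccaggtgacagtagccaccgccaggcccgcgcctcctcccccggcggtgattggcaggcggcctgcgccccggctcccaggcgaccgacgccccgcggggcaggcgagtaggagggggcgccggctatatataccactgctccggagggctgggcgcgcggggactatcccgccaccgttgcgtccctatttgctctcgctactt
Fgfr2, chr7:130266759-130267058, minus strand: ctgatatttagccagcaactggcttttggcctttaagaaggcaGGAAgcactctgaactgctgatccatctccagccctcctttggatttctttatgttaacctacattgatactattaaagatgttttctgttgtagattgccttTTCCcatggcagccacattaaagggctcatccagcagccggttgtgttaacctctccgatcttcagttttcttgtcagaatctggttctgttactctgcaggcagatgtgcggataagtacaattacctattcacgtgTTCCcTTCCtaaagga
Hras, chr7:141193955-141194254, minus strand: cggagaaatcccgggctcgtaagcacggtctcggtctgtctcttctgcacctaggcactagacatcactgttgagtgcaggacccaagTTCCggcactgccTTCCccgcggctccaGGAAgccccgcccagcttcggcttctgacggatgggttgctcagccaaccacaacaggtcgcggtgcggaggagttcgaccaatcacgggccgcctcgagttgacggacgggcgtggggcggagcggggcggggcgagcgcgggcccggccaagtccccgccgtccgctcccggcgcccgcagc
Etv5 upstream start, chr16:22439521-22439820, minus strand: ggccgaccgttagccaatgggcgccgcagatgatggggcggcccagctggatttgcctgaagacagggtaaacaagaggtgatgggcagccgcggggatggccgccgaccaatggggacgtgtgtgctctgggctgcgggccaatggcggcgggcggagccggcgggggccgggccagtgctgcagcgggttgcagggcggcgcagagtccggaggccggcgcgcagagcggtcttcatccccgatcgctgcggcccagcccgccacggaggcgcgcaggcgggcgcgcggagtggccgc
Etv5 downstream start, chr16:22438319-22438618, minus strand: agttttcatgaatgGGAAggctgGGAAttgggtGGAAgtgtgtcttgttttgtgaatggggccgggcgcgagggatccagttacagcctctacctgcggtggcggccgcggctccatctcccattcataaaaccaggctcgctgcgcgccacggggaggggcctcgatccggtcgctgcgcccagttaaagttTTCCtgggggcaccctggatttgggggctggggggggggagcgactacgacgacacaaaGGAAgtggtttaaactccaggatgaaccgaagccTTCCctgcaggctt
The cores numbered 0 in Fgf4, 4 in Fgfr2, 3 in Hras, 0 at the upstream Etv5 start and 6 at the downstream Etv5 start. In the windows of Dusp6 and Spry2, which are not printed, they numbered 6 and 5. The core is short and common: 96.0% of 32851 RefSeq promoter windows of this length hold it, with a mean of 3.52 matches. The longer ETS motif CCGGAAGT, found in 3.89% of all windows, was in none of these 7 windows. The cyclic AMP element TGACGTCA (1.79% of windows) and the AP-1 motif TGANTCA (7.81%) were also in none. The GC box GGGCGG, present in 35.7% of windows, matched 3 times in Hras, 2 times in Fgf4 and 3 times at the upstream Etv5 start, and did not match in the other 4 windows. Both strands were searched in every case, and the ETS motif contains the ETS core. A match is a description of letters and not of binding.

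Of the 9 genes, 3 lie on chromosome 7. In RefSeq GRCm38.p6, Fgfr2 spans chr7:130162451-130266808, Hras chr7:141189934-141194019 and Fgf4 chr7:144861386-144865245. Fgfr1 lies at chr8:25518759-25575718, Dusp6 at chr10:99263231-99267489 and Etv4 at chr11:101769747-101785310. Spry2 lies at chr14:105891947-105896819 and Etv5 at chr16:22381313-22439570. In GENCODE, Lrrc56 starts within 500 bases of Hras on the opposite strand, inside the Hras window printed above, and reached at most 2.20 FPKM in any library. The GENCODE model of Fgfr2 overlaps many other genes, so reads assigned to Fgfr2 depend on the annotation the authors used, which is not given in the sources used here.

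Levels are FPKM as deposited, which are fragments per kilobase of transcript scaled to library size. Approximate depths, read from the steps between low values, ranged from about 3200000 reads in iPGC library 1 to 19900000 in PGC library 1. In all, 7991 to 10039 genes per library reached 1 FPKM. The 10 germ cell markers summed to between 621 and 1393 FPKM in PGCs, iPGCs and PGCLCs, mostly from Dppa3 and Ifitm3. None of the 10 was listed at 0 in these libraries, but some were low. Ddx4 stood at 0.0183 FPKM in PGC library 2, Dnd1 at 0.732 in PGC library 1 and Nanos3 at 0.737 in iPGC library 1. In EGC lines 4 and 7 they summed to 129 and 255 FPKM. The 8 pluripotency markers summed to 288 to 674 FPKM across all libraries, but the genes behind the sums differed. Sall4 was the largest part in PGC libraries 1 and 2 (193 and 194 FPKM) and was lower in both EGC lines (56.7 and 60.3). Tdgf1 went the opposite way, from 0.534 and 4.78 FPKM in PGC libraries to 189 and 145 in EGC lines. Nanog did so too (6.69 and 16.1 against 46.9 and 45.3). By mean log2 level, 5 of the 8 were higher in EGCs than in PGCs and 3 were lower. PGC library 1 also held transcripts of marker genes of other cell types. Its 8 measured blood and platelet markers summed to 135 FPKM and its 10 endoderm and yolk sac markers to 173 FPKM. In PGC library 2 these sums were 14.5 and 3.28 FPKM, and elsewhere at most 0.544 and 11.7 FPKM. The 9 measured mesoderm markers summed to 63.2 and 23.9 FPKM in PGC libraries 1 and 2, and to 2.36 to 17.0 elsewhere. Where the feeder cells of EGCs are concerned, Col1a1, a defining fibroblast gene, stood at 0.0142 and 0 FPKM in EGC lines 4 and 7. Thy1, a surface protein of fibroblasts and other cells, stood at 0.963 and 3.56 FPKM in these lines and at 2.89 and 0.859 in iPGCs, and was listed at 0 in PGCs and PGCLCs. Of the 10 fibroblast markers, 7 and 8 were listed at 0 in these lines, and their sums of 51.2 and 45.2 FPKM, mostly Fn1 (50.2 and 41.7), lay within the 42.6 to 69.4 of the other libraries. The 7 measured neural markers summed to 54.6 FPKM in PGC library 1 and to 56.2 and 36.1 in EGC lines 4 and 7, and to 1.02 to 20.8 elsewhere. Different genes made up these sums. In PGC library 1 it was mostly Map2 (53.3 FPKM), with Stmn2 at 0.0535. In EGC lines 4 and 7 it was mostly Stmn2 (38.2 and 27.9 FPKM), with Map2 at 6.99 and 1.71. The part of these markers in the results below was not tested, beyond leaving out each library. In bulk RNA, fewer cells of a type and less RNA per cell cannot be told apart.

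Fgf4, the ligand, was low in PGCs and present in every cultured group. It stood at 1.27 and 0.0440 FPKM in PGC libraries 1 and 2, at 10.2 and 12.2 in iPGCs, at 17.7 and 12.0 in PGCLCs, with 9.44 and 8.76 in EGC lines 4 and 7. All 6 libraries of cultured cells lay above both PGC libraries. The order of the means was PGCLC, iPGC, EGC and PGC, and PGCLC and iPGC libraries overlapped. Fgf4 rose in PGCLCs over PGCs by 3.34 ± 0.60 on the log2(FPKM + 1) scale (SE, 2 against 2 libraries; 95% interval 1.97 to 4.72; limma adjusted p = 0.0481). The difference was 2.98 ± 0.60 in iPGCs (adjusted p = 0.0657) and 2.71 ± 0.60 in EGCs (adjusted p = 0.0822), and neither passed the threshold of 0.05. These 3 comparisons share the PGC libraries, and Fgf4 passed the filter on low values through the cultured groups. Its adjusted p-values against PGCs are therefore given as description, and the levels are the result. At the estimated depths the PGC values correspond to about 25.3 and 0.74 reads per kilobase. The rise in PGCLCs passed the threshold in 1 of 16 other settings, without PGC library 1 (adjusted p = 0.0446), and missed it in the other 15, with adjusted p up to 0.239.

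**Figure D1:**
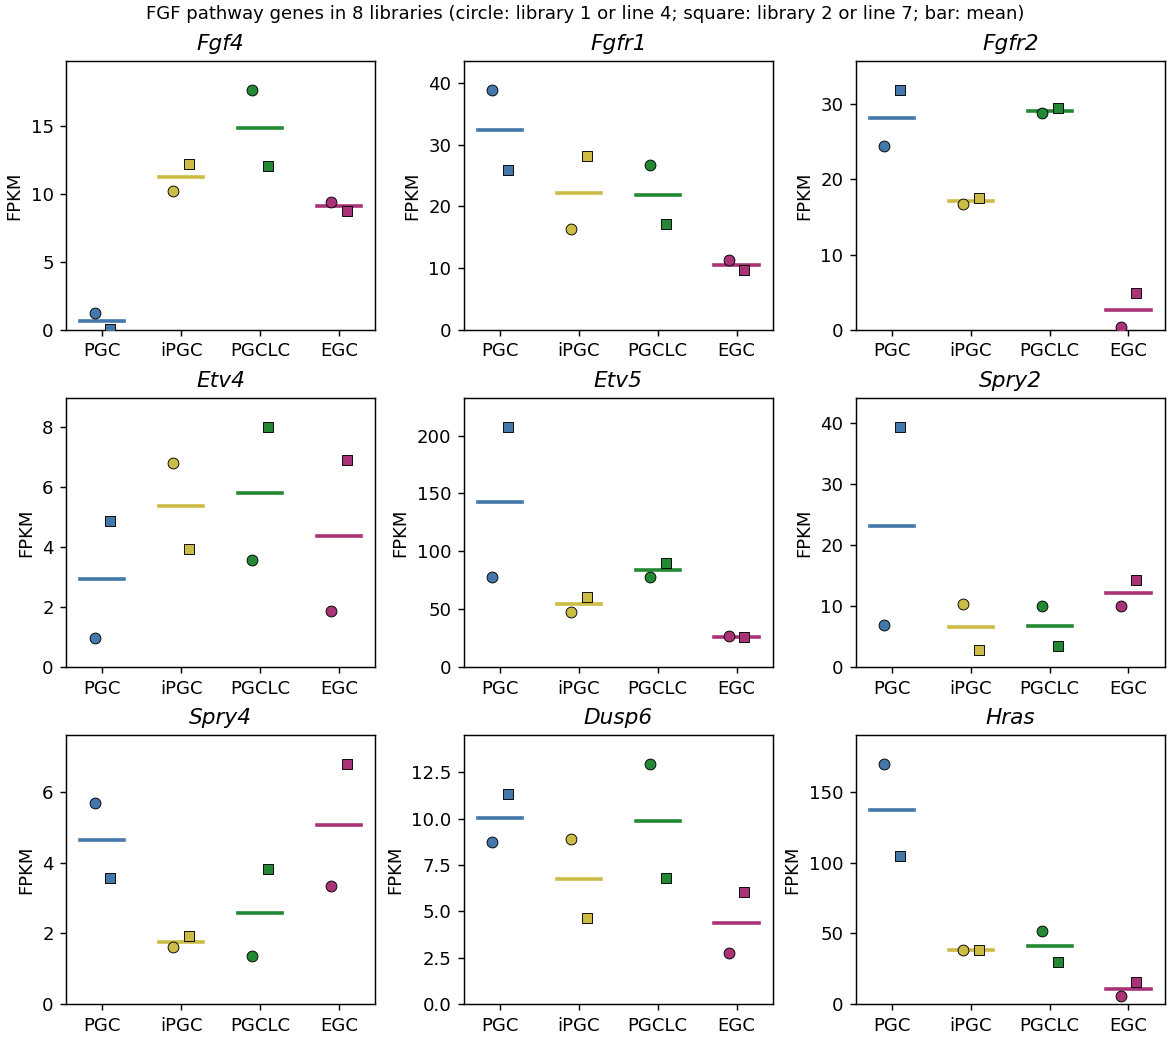
FPKM (y axis, linear from 0) of the 9 genes in the 4 groups (x axis), with 1 point per library (circle for library 1 or line 4, square for library 2 or line 7) and a bar for the mean of 2. Both PGC points of Hras (170 and 105) lie above all others, and both PGC points of Fgf4 (1.27 and 0.0440) lie below all others.

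Both receptors had their lowest values in the EGC lines, and neither passed the test in any comparison. Fgfr1, a receptor broadly expressed in early embryos, stood at 38.9 and 26.0 FPKM in PGCs, 16.3 and 28.1 in iPGCs, 26.7 and 17.1 in PGCLCs, with 11.3 and 9.71 in EGCs. Both EGC lines lay below the other 6 libraries, while the other 3 groups overlapped. The difference between EGCs and PGCs was -1.51 ± 0.51 (log2, SE; adjusted p = 0.192) and did not pass the threshold. Fgfr2, whose splice forms serve epithelium and mesenchyme, stood at 24.4 and 31.9 FPKM in PGCs, 16.8 and 17.6 in iPGCs, 28.8 and 29.5 in PGCLCs, with 0.358 and 4.94 in EGC lines 4 and 7. Both EGC lines again lay below the other 6 libraries, and iPGCs lay between EGCs and the overlapping pair of PGCs and PGCLCs. The difference from PGCs was -3.35 ± 0.69 (95% interval -4.93 to -1.76; adjusted p = 0.0715). Against PGCLCs it was -3.41 ± 0.69 (adjusted p = 0.128) and against iPGCs -2.68 ± 0.69 (adjusted p = 0.293), so Fgfr2 was not called in any comparison. The EGC lines themselves were 2.13 apart on the log2(FPKM + 1) scale for Fgfr2, a gap wider than in 93.1% of tested genes, whose median gap was 0.63. In EGC line 4, 0.358 FPKM corresponds to about 5.37 reads per kilobase.

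Summed over Fgfr1 to Fgfr4, receptor levels were 65.6 and 57.9 FPKM in PGCs, 35.1 and 47.1 in iPGCs, 55.5 and 50.6 in PGCLCs, with 13.8 and 15.1 in EGCs. Fgfr3 and Fgfr4 were minor receptors, at no more than 2.92 and 1.21 FPKM in any library. The FPKM ratio of Fgfr1 to Fgfr2 was between 0.579 and 1.60 in the 6 germ cell libraries, 31.6 in EGC line 4 and 1.97 in line 7. Fgfr1 was thus above Fgfr2 in both EGC lines, as it also was in PGC library 1 (ratio 1.59) and iPGC library 2 (1.60). Only line 4 stood far apart, with Fgfr2 at 0.358 FPKM. These sums and ratios were chosen after the values were seen and were not tested.

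Hras, one of the Ras GTPases that relay the receptor signal to RAF kinases, was highest in PGCs and lowest in EGCs. It stood at 170 and 105 FPKM in PGCs, 38.1 and 38.5 in iPGCs, 51.6 and 29.9 in PGCLCs, with 5.50 and 15.6 in EGC lines 4 and 7. PGCs lay above all other libraries and EGCs below all others, with iPGCs and PGCLCs overlapping between them. Hras fell by 3.70 ± 0.56 on the log2 scale in EGCs against PGCs (SE, 2 against 2 libraries; 95% interval -4.98 to -2.41; limma adjusted p = 0.0354). The mean was 137 ± 45.9 FPKM in PGCs and 10.5 ± 7.14 FPKM in EGCs (SD, n = 2). The differences of iPGCs and PGCLCs from PGCs were -1.78 ± 0.56 (adjusted p = 0.146) and -1.74 ± 0.56 (adjusted p = 0.145). Those of EGCs from iPGCs and PGCLCs were -1.92 ± 0.56 (adjusted p = 0.324) and -1.96 ± 0.56 (adjusted p = 0.218), and none of these 4 passed. The fall in EGCs passed the threshold in 5 of 14 other settings and missed it in 9, with differences from -4.37 to -3.02 and adjusted p up to 0.215. Of the libraries left out in turn, only the removal of PGC library 2 kept the call. Without PGC library 1, which held the blood and yolk sac markers, the difference was -3.35 and did not pass (adjusted p = 0.0695).

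For Nras, which encodes a closely related GTPase, PGC and EGC libraries overlapped. Nras stood at 54.3 and 23.3 FPKM in PGCs and 31.4 and 24.7 in EGCs, with a log2 difference of -0.34 ± 0.50 (adjusted p = 0.773). The FPKM ratio of Hras to Nras was 3.13 and 4.50 in PGCs, 1.06 and 0.801 in iPGCs, 1.55 and 0.776 in PGCLCs, with 0.175 and 0.631 in EGC lines 4 and 7. Hras was therefore above Nras in both PGC libraries and below it in both EGC lines, as it also was in iPGC library 2 (0.801) and PGCLC library 2 (0.776). This ratio compares genes per length within a library, so a factor common to all genes of a library leaves it unchanged. It was chosen after the values were seen and was not tested.

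**Figure D2:**
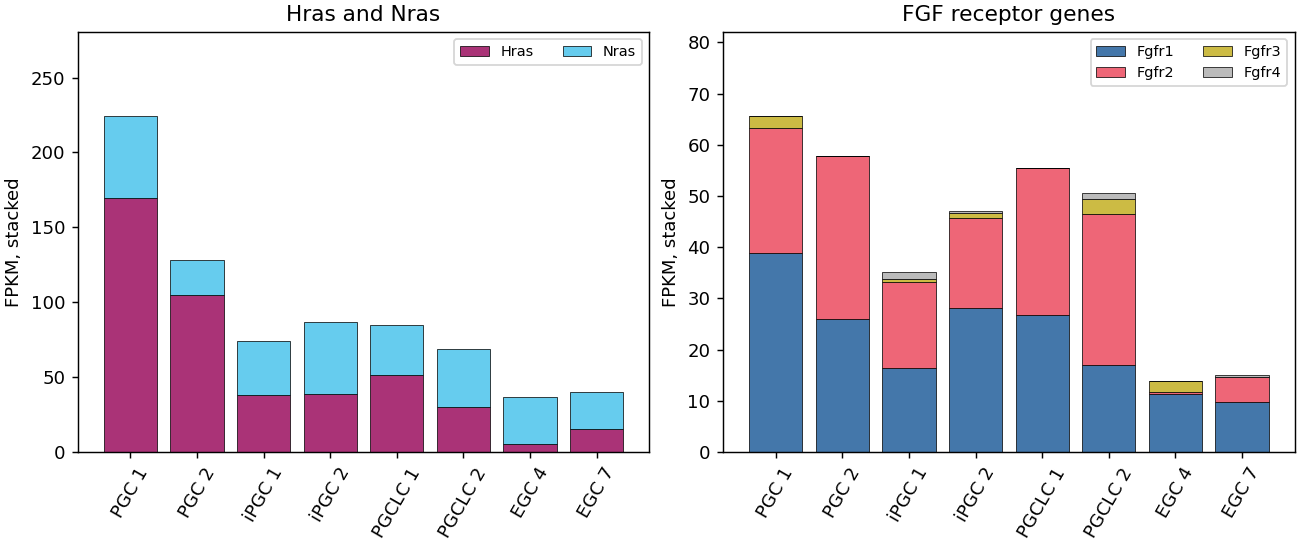
Stacked FPKM (y axis, linear from 0) of Hras and Nras (left) and the FGF receptor genes (right) in each of the 8 libraries (x axis), with 1 bar per library and no error. The Hras segment shrinks from 170 and 105 in PGCs to 5.50 and 15.6 in EGCs, and the summed receptors are 13.8 and 15.1 in EGCs against 35.1 to 65.6 elsewhere.

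Etv5 was by far the more abundant of the paired ETS factors in every library. It stood at 77.4 and 207 FPKM in PGCs, 47.8 and 60.7 in iPGCs, 77.7 and 89.8 in PGCLCs, with 26.5 and 25.8 in EGC lines 4 and 7. EGCs lay below all other libraries and agreed closely with each other, iPGCs lay above EGCs and below PGCLCs, and PGCs overlapped PGCLCs. The log2 difference between EGCs and PGCs was -2.23 ± 0.51 (adjusted p = 0.0856), and that between EGCs and PGCLCs was -1.64 ± 0.51 (adjusted p = 0.239). Without PGC library 1 the difference from PGCs was -2.94 and passed the threshold (adjusted p = 0.0430). Etv4, whose protein has a similar ETS domain, stood at 0.979 and 4.86 FPKM in PGCs, 6.82 and 3.92 in iPGCs, 3.57 and 8.01 in PGCLCs, with 1.85 and 6.90 in EGC lines 4 and 7. All 4 groups overlapped with their neighbours for Etv4, and its log2 difference between EGCs and PGCs was 0.48 ± 0.81 (95% interval -1.36 to 2.32; adjusted p = 0.804). That difference was -0.30 without PGC library 1 and -0.26 without EGC line 7. Of the summed FPKM of Etv1, Etv4 and Etv5, Etv5 made up 97.0% to 98.8% in PGCs, at least 87.4% in iPGCs and PGCLCs, and 73.1% and 76.8% in EGCs, a description chosen after the values were seen.

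The feedback inhibitors among the 9 stood at 39.3 FPKM or less, and none passed in any comparison. Spry2, a Sprouty protein that blocks Ras activation downstream of receptors, stood at 6.90 and 39.3 FPKM in PGC libraries 1 and 2, 10.3 and 2.78 in iPGCs, 10.0 and 3.38 in PGCLCs, with 9.92 and 14.3 in EGCs. No 2 groups were separate for Spry2. Its gap between PGC libraries (2.35 on the log2 scale) was wider than in 88.1% of tested genes, and that between iPGC libraries (1.58) wider than in 94.4%. The sign of its difference between EGCs and PGCs depended on PGC library 2, being -0.46 ± 0.91 with it and 0.71 without it. Spry4, a related Sprouty protein, stood at 5.71 and 3.56 FPKM in PGCs, 1.63 and 1.91 in iPGCs, 1.36 and 3.82 in PGCLCs, with 3.35 and 6.81 in EGCs. The iPGC libraries lay below those of PGCs and EGCs, and the differences did not pass. Mean log2(FPKM + 1) of Spry4 was 1.47 in iPGCs, 2.47 in PGCs and 2.54 in EGCs. The 95% interval of the difference was -2.49 to 0.48 for iPGCs minus PGCs (adjusted p = 0.430) and -0.41 to 2.56 for EGCs minus iPGCs (adjusted p = 0.604). In iPGC library 1 the Spry4 level corresponds to about 5.2 reads per kilobase. Dusp6, a phosphatase that inactivates ERK in the cytoplasm, stood at 8.75 and 11.4 FPKM in PGCs, 8.91 and 4.62 in iPGCs, 13.0 and 6.82 in PGCLCs, with 2.76 and 6.02 in EGC lines 4 and 7. Both EGC lines lay below the PGC and PGCLC libraries and overlapped with iPGCs. Its log2 difference between EGCs and PGCs was -1.10 ± 0.63 (95% interval -2.53 to 0.34; adjusted p = 0.421).

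Other inhibitors of the same families gave a mixed picture, and none passed in any comparison. Spred2, a Sprouty relative, stood at 52.3 and 90.6 FPKM in PGCs, against 19.2 and 18.4 in iPGCs, 79.5 and 37.6 in PGCLCs, with 20.3 and 13.5 in EGCs (EGCs minus PGCs -1.99 ± 0.52, adjusted p = 0.112). The nuclear MAP kinase phosphatase gene Dusp4 stood at 12.6 and 25.9 FPKM in PGCs and 4.33 and 1.37 in EGCs (-2.43 ± 0.66, adjusted p = 0.122). Dusp9 stood at 33.8 and 4.86 FPKM in PGCs, 20.3 and 34.3 in iPGCs, 74.1 and 48.7 in PGCLCs, with 7.05 and 12.1 in EGCs. PGCLCs were thus the highest group for Dusp9, with a log2 difference from PGCs of 2.10 ± 0.80 (adjusted p = 0.202). Spry1 stayed at or below 6.07 FPKM in all libraries.

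Read by comparison rather than by gene, 1 of the 9 genes was called between EGCs and PGCs (Hras, lower), where 0.74% of all 11083 tested genes were called and 0.217% were called lower. Between PGCLCs and PGCs 1 was called (Fgf4, higher), against 1.06% of all genes in either direction and 0.938% called higher. Fgf4 passed the filter on low values through the cultured groups, so this call is description only. None was called by limma between iPGCs and PGCs (0.794% of all genes), PGCLCs and iPGCs (0.018%), EGCs and iPGCs (0.117%) or EGCs and PGCLCs (0.0993%). At an unadjusted p below 0.05, 5 of the 9 passed between EGCs and PGCs (17.2% of all genes), 3 between iPGCs and PGCs (19.5%) and 2 between PGCLCs and PGCs (19.5%). There were 0 between PGCLCs and iPGCs (4.68%), 2 between EGCs and iPGCs (10.3%) and 3 between EGCs and PGCLCs (13.9%). Because the 9 were chosen with earlier results of these data known, these counts beside the shares are description only. A test for any difference among the 4 groups called none of the 9 (0.505% of all genes), with Hras (adjusted p = 0.0778), Fgf4 (0.0901) and Fgfr2 (0.105) nearest the threshold by the limma F-test.

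The libraries of EGCs lay wholly below those of PGCs for 5 of the 9 genes (Fgfr1, Fgfr2, Etv5, Dusp6 and Hras), a relation held by 20% of all tested genes, and wholly above for Fgf4 (24.1%). The median log2 difference of the 9 was -1.10, beside 0.07 over all tested genes. As the 9 were chosen with earlier results of these data known, the shares and medians in this paragraph are description only. For iPGCs, 4 lay wholly below PGCs (Fgfr2, Etv5, Spry4 and Hras; 13.1% of all genes) and Fgf4 wholly above (39.4%), with a median of -0.67 beside 0.47. For PGCLCs, Hras lay wholly below PGCs (11.8% of all genes) and Fgf4 wholly above (33.5%), with a median of -0.55 beside 0.44. Against PGCLCs, 6 of the 9 lay wholly lower in EGCs (34.2% of all genes), and against iPGCs 5 did (39.5%) and Spry4 lay wholly higher (10.8%), where all tested genes had medians of -0.38 and -0.40. Between PGCLCs and iPGCs, Fgfr2 and Etv5 lay wholly higher in PGCLCs (17.3% of all genes), with log2 differences of 0.73 ± 0.69 and 0.62 ± 0.51 that did not pass (limma adjusted p = 1). The median of all genes therefore moved by over 0.1 in 4 of the 6 comparisons. Relative to it, the rise of Fgf4 in PGCLCs over PGCs was 2.91, and the Hras differences of iPGCs and PGCLCs from PGCs were -2.24 and -2.17. The sign of the difference changed with the scaling of the libraries for Fgf4 and Etv4 between EGCs and iPGCs and for Etv4 between EGCs and PGCLCs. It also changed for Fgfr2 between PGCLCs and PGCs, Hras between PGCLCs and iPGCs and Spry4 between EGCs and PGCs.

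**Figure D3:**
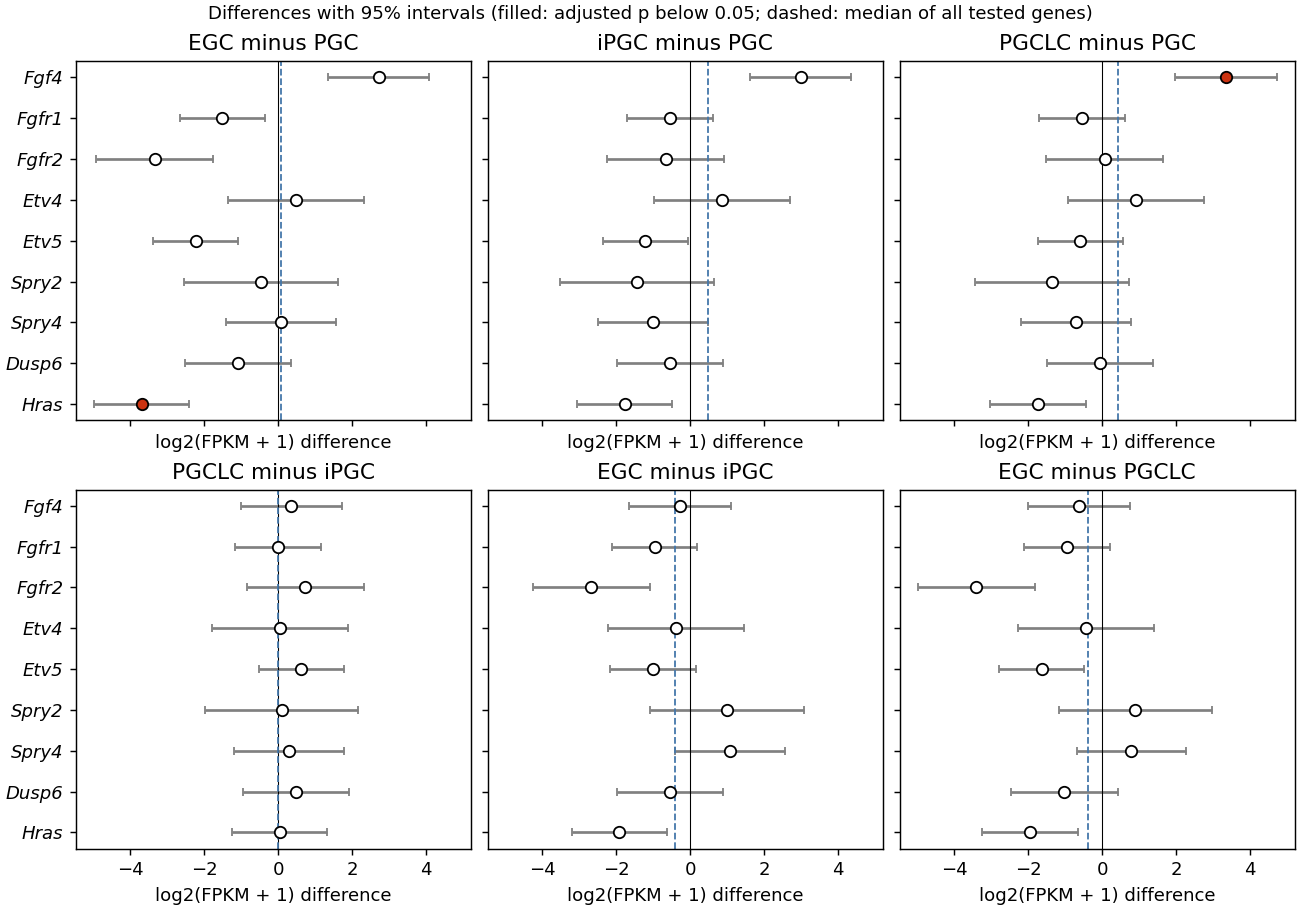
Difference in log2(FPKM + 1) (x axis) of each of the 9 genes (y axis) in the 6 comparisons, as points with 95% intervals from limma. Filled points passed an adjusted p of 0.05, dashed lines mark the median of all tested genes, and the 2 filled points are Hras at -3.70 in EGCs minus PGCs and Fgf4 at 3.34 in PGCLCs minus PGCs.

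Among all 18 FGF ligand genes, few were detected beside Fgf4. In all, 7 of them reached 1 FPKM in any library, 5 were listed at 0 in every library, and 5 passed the filter for testing. Fgf17, a ligand of the Fgf8 subfamily, stood at 13.6 and 3.25 FPKM in EGC lines 4 and 7 and at no more than 0.322 elsewhere. Fgf15, an endocrine-type ligand, stood at 6.47 and 2.05 FPKM in the same lines and at no more than 0.480 elsewhere. Both therefore had their highest values in the EGC lines, with line 4 above line 7. They reached the filter of 1 FPKM in 2 libraries through these lines alone, so their values are given with no test. Fgf8 was listed at 0 in PGCLCs, with 0 and 0.558 FPKM in PGCs, and stood at 3.02 and 2.39 in iPGCs and 2.89 and 3.30 in EGCs. It reached the filter through the iPGC and EGC libraries alone and is likewise given with no test. Fgf5, a marker of the primed epiblast, did not exceed 1.66 FPKM in any library. In PGCLC library 2, Fgf1 reached 12.3 FPKM, against at most 0.302 elsewhere, and Fgf7 was listed above 0 in that library alone. Fgf4 supplied 99.7% and 45.1% of summed ligand FPKM in the PGCLC libraries, 65.8% and 72.8% in iPGCs, 27.8% and 47.2% in EGC lines 4 and 7, with 50.7% and 5.65% in PGC libraries 1 and 2, where the ligands summed to only 2.51 and 0.78 FPKM.

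**Figure D4:**
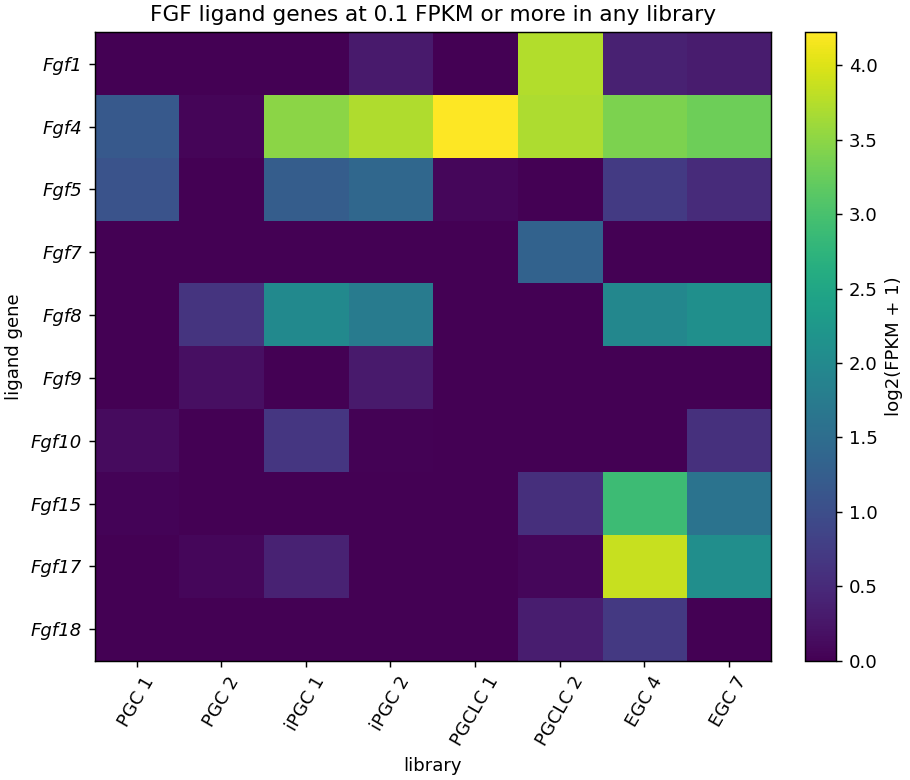
Heat map of log2(FPKM + 1) for the FGF ligand genes that reached 0.1 FPKM in any library (rows) in the 8 libraries (columns), with colour from 0 (dark) to the highest value (yellow). Fgf4 is the only row that is bright in all 6 libraries of cultured cells, and Fgf17 (13.6 and 3.25 FPKM) and Fgf15 (6.47 and 2.05 FPKM) are bright in the EGC columns.

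The wider pathway was read from 6 lists with 110 genes, of which 88 were tested. In EGCs against PGCs 1 of the 88 was called, Hras, which was lower. Beside it, 0.74% of all tested genes were called in either direction and 0.217% lower. The lists were chosen with earlier results of these data known, so this count is description only. In iPGCs 2 were called, both higher than in PGCs, where 0.749% of all tested genes were called higher: Sdc4, a cell surface heparan sulfate proteoglycan (3.95 ± 0.53, limma adjusted p = 0.0215), and Gab1, a docking protein for SHP2 and PI3 kinase (3.32 ± 0.50, limma adjusted p = 0.0331). In PGCLCs Sdc4 was called higher (3.86 ± 0.53, limma adjusted p = 0.0273), beside 0.938% of all tested genes. Fgf4 was called higher there as well, but it passed the filter on low values through the cultured groups, so its call is description only. Sdc4 stood at 1.48 and 3.97 FPKM in PGCs, 52.0 and 54.8 in iPGCs, 59.2 and 42.3 in PGCLCs, with 5.22 and 7.71 in EGCs. It was thus high in both kinds of germ cell made from BVSC ESCs and low in PGCs and EGCs, and the only one of the 88 that passed the F-test over the 4 groups (adjusted p = 0.0289). That is 1.14% of the 88, beside 0.505% of all tested genes. Gab1 stood at 8.16 and 3.29 FPKM in PGCs, 67.8 and 55.7 in iPGCs, 46.4 and 33.7 in PGCLCs, with 32.1 and 32.1 in EGCs, so every cultured library lay above both PGC libraries. Under 16 other settings Sdc4 passed in 9 and missed in 7 in each of these comparisons, and Gab1 in iPGCs passed in 5 and missed in 11, with positive differences throughout. Leaving out any 1 of the iPGC or PGCLC libraries ended both Sdc4 calls, with adjusted p up to 0.257 in iPGCs and 0.212 in PGCLCs. The Gab1 call ended without any 1 of the iPGC, PGCLC or EGC libraries, with adjusted p up to 0.349. No gene of the lists was called in the other 3 comparisons.

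By list, the 13 tested feedback inhibitors had a median log2 difference from PGCs of -0.47 in EGCs, -0.59 in iPGCs and -0.35 in PGCLCs, beside medians of all tested genes of 0.07, 0.47 and 0.44. None of these 13 passed. They include Spry2, Spry4 and Dusp6, which were chosen with earlier results of these data known, so the medians are description only. The 27 tested adaptor and Ras-MAPK genes had medians of -0.11, 0.22 and 0.15 in the same comparisons. The 19 tested heparan sulfate genes had medians of 1.07, 0.26 and 0.29, and the 19 ERK-responsive genes had 0.48, 0.37 and 0.57. For the 5 tested ligands no median or count is given, because Fgf15 and Fgf17 passed the filter only through the EGC libraries. The 5 tested receptors had medians of -0.06, 0.00 and 0.11.

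**Figure D5:**
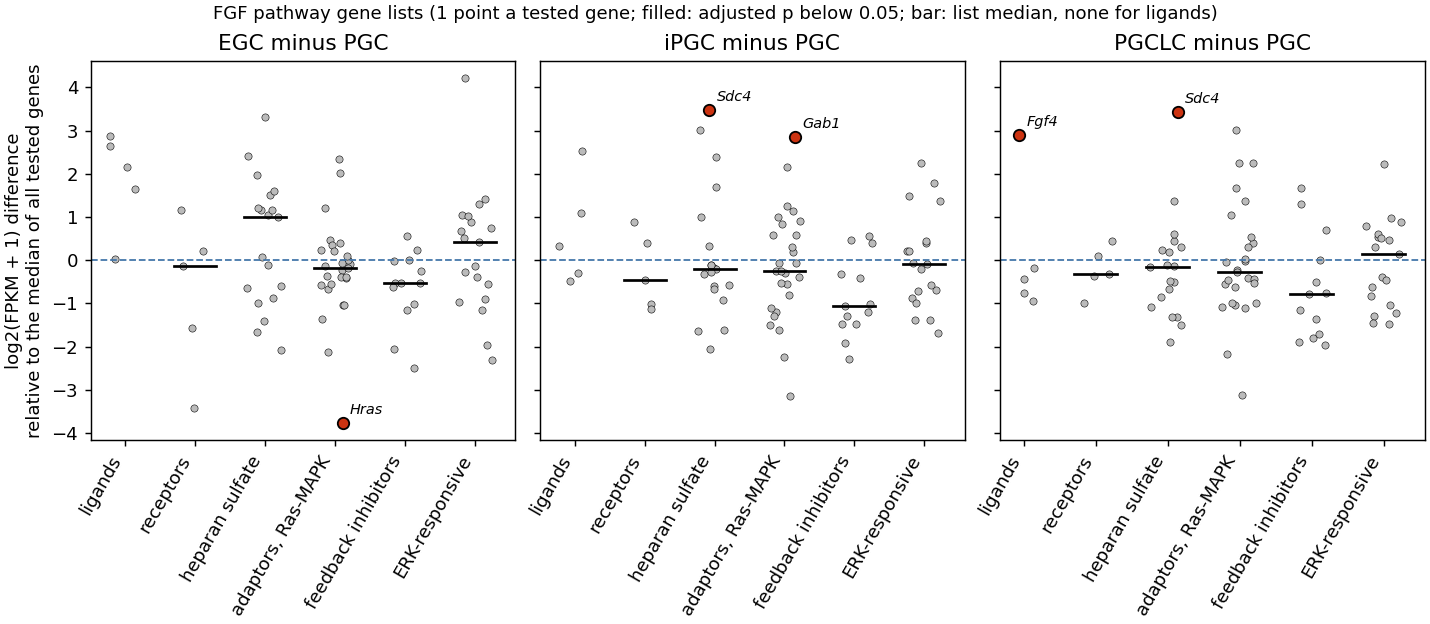
Difference in log2(FPKM + 1) from PGCs, relative to the median of all tested genes (y axis), for each tested gene of 6 FGF pathway lists (x axis) in EGCs, iPGCs and PGCLCs. Filled points passed an adjusted p of 0.05 and are Hras in EGCs, Sdc4 and Gab1 in iPGCs, and Fgf4 and Sdc4 in PGCLCs, and bars are list medians, with none drawn for the ligands.

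The tested protein coding genes outside the lists whose centred log2 profile over the 8 libraries was nearest to each member were found among 10251 candidates. For Hras these were Irf1 (mean absolute log2 distance 0.231) and Hmgn5 (0.315), and for Fgf4 Rbck1 (0.223) and Myo1c (0.231). For Etv5 they were Gab2 (0.159) and Nfkbiz (0.208). Fgfr2 had the most distant nearest gene of the 9, Med7 (0.340), followed by Sparc (0.410), and Dusp6 had the closest, Mark3 (0.139). This likeness is over 8 libraries of 4 groups and describes levels only.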

How the data were processed

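RNA was amplified from small cell numbers and sequenced as 50-base single-end reads in 2 lanes, per the labels' protocols. The authors deposited 1 table of FPKM values, meaning fragments counted per kilobase of transcript and scaled to sequencing depth, in 8 columns. TopHat2, Cufflinks and GRCm38 (mm10) are named, per the submitters' processing notes. For versions, annotation and strand, the sources used here give nothing. Spike-ins were not used here.

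The table has 20171 entries for 20153 identifiers, and 18 extra entries were dropped. A gene was tested if 2 or more libraries reached 1 FPKM (11083 genes), using limma 3.58.1 (trend, robust) in R 4.3.3 on log2(FPKM + 1). The pseudocount of 1 understates changes of low genes. All 8 libraries shared 1 estimate of the spread (4 residual degrees of freedom, median prior 4.53). Tests are two-sided, with Benjamini-Hochberg adjustment over all tested genes of a comparison and a threshold of 0.05. The model was tested on simulated data. An exact 0 may be a failed estimate. The depths given are approximate because no counts were used.

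All 9 genes are named with every value. Of the pathway lists, genes past the threshold, FGF ligands, receptors, Ras, Etv1, Sprouty, Spred and Dusp genes may be named, as may markers. A gene that this rule allows is not reported here. Ccnd1 and Ext2 fall outside the rule and were chosen after their values were seen. The 2 nearest profiles per gene come from a fixed distance. The members and lists were chosen with earlier results of these data known. Replicates are biological per the design text, each sequenced in technical duplicate. Alternatives were other pseudocounts, no filter, other scalings, fits of the compared groups alone, blocking by replicate number, and leaving out single libraries.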

Additional observations from a re-analysis of the deposited data

How the results depend on the processing

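Both called members lay near the threshold. The count of members called between EGCs and PGCs went from 1 to 0 with no expression filter and with only the groups compared. It was 0 to 1 when each library was left out in turn: 0 without iPGC library 1 or 2, PGCLC library 1 or 2, EGC line 4 or EGC line 7, and 1 without either PGC library, where Etv5 replaced Hras when PGC library 1 was left out. The count between PGCLCs and PGCs went from 1 to 0 with a pseudocount of 0.1 or 5, with no expression filter, with quantile normalization, with equal library medians and with only the groups compared. It was 0 to 1 over the libraries left out, and 1 only without PGC library 1. The cause was not tested. Leaving out a library leaves an arm with 1 library, assumed to vary like the others. The remaining 4 comparisons and the test over the 4 groups called 0 members in each setting run.

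No pairing by replicate number was seen: deviations of same-numbered libraries correlated across genes at 0.0071 (PGCs and iPGCs), -0.03 (PGCs and PGCLCs) and 0.06 (iPGCs and PGCLCs). These correlations cannot show whether same-numbered libraries were handled together. With the replicate block, in a fit of the PGC, iPGC and PGCLC libraries, the count between PGCLCs and PGCs was 0, and it was also 0 in that fit without the block, an alternative chosen after seeing the data. The EGC lines carry other numbers and allow no block.

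Of 874 single-gene values under other settings (the 9 genes, with Sdc4 and Gab1 in iPGCs and PGCLCs against PGCs), 792 kept direction and side of the threshold, 49 lost a call, 3 gained one and 30 reversed. Most of the 874 had no call to lose. Against PGCs, the call was lost for Hras in EGCs in 9 of 14 settings and for Fgf4 in PGCLCs in 15 of 16. For Sdc4 it was lost in 7 of 16 in iPGCs and in PGCLCs, and for Gab1 in iPGCs in 11 of 16. Each reversed difference missed the threshold with all libraries in the standard setting. With quantile normalization and equal library medians in turn, Fgfr2 between PGCLCs and PGCs was -0.17 and -0.48, Hras between PGCLCs and iPGCs -0.10 and -0.0080, Fgf4 between EGCs and iPGCs 0.093 and 0.12, and Etv4 between EGCs and iPGCs 0.072 and 0.010. With equal medians Spry4 between EGCs and PGCs was -0.024, and Etv4 between EGCs and PGCLCs 0.0063. Over the libraries left out in turn, differences of EGCs from PGCs ran from -0.30 to 1.26 for Etv4 (negative without PGC library 1 or EGC line 7), from -1.64 to 0.71 for Spry2 (positive without PGC library 2) and from -0.35 to 0.50 for Spry4. Those of PGCLCs from PGCs ran from -0.13 to 0.25 for Fgfr2, from -1.30 to 0.11 for Etv5 (positive without PGC library 2) and from -0.49 to 0.35 for Dusp6. Those of PGCLCs from iPGCs ran from -0.38 to 0.37 for Fgfr1, from -0.44 to 0.54 for Etv4, from -0.70 to 0.88 for Spry2, from -0.35 to 0.42 for Hras and from -0.23 to 0.80 for Spry4. For Etv4, EGCs minus PGCLCs ran from -1.17 to 0.30 and EGCs minus iPGCs from -1.12 to 0.35. Protein sequences were not used here. Depth limits Fgf4 in PGC library 2 (0.74 reads per kilobase), Fgfr2 in EGC line 4 (5.37) and Spry4 in iPGC library 1 (5.2).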

Other observations

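Of the ERK-responsive list, Ccnd1, the gene of cyclin D1, stood at 89.3 and 59.6 FPKM in EGC lines 4 and 7, above the other 6 libraries. It stood at 12.4 and 0.0858 FPKM in PGCs, 5.33 and 4.91 in iPGCs and 24.8 and 1.08 in PGCLCs. The log2 difference between EGCs and PGCs was 4.28 ± 1.34 and did not pass (limma adjusted p = 0.167). Ext2, an enzyme of heparan sulfate synthesis, stood at 17.5 FPKM in EGC line 4 and 205 in line 7, against 0.691 to 19.9 in the other libraries. Both genes were chosen after their values were seen.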
